A study of Mus musculus with 15 samples.

Results

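The genes described here are 10 circadian clock genes, Per1, Per2, Per3, Cry1, Clock, Npas2, Nr1d1, Nr1d2, Dbp and Tef, in RNA sequencing of mouse kidney. They were chosen by name, as the rows of the deposited expression table whose gene identifier is one of these symbols, and all 10 were found among its 17832 genes. The values are FPKM, read fragments scaled to transcript length and to the library's mapped reads, so levels can be compared between genes within a library, while comparisons between libraries depend on the scaling. All kidneys were from male mice of strain C57BLKS/J aged 22 weeks. One group of 5 libraries was from db/db mice given 1 mg/kg dapagliflozin (db/db Dapa), an inhibitor of the renal glucose transporter SGLT2, in 0.5% methylcellulose. A second group of 5 was from db/db mice given 0.5% methylcellulose alone (db/db vehicle). The third group of 5 was from m/m mice, labelled WT, given the same vehicle. The db/db mice carry a leptin receptor mutation in every cell, which leads to obesity and diabetes, and m/m mice of this strain are not diabetic. No label ties a library to an animal, so each p-value is set against the spread between libraries, part of which may be technical. The hour of day at which the kidneys were taken is not given in the labels used here.

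The circadian clock is a feedback loop of transcription that runs in most cells of the body, kidney tubule cells included. CLOCK, or its relative NPAS2, pairs with BMAL1 (gene Arntl), binds E-box sequences and switches on the Period and Cryptochrome genes, whose proteins then hold the CLOCK/BMAL1 pair back. The same pair drives Nr1d1 and Nr1d2, which encode REV-ERB alpha and beta, repressors that act on Arntl, Clock and Npas2, and it drives Dbp, an activator that binds D-box sequences as its relative TEF does. In mouse organs, Arntl and Npas2 are highest at a time of day when Dbp and the REV-ERB genes are low. In the kidney the clock is known to set daily rhythms of sodium, water and solute handling.

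The 15 libraries fell into a deep and a shallow set that do not follow the groups. Read numbers, recovered from the FPKM steps in 17828 genes, were 14.2 to 15.96 M per library in db/db vehicle 1 to 3 and WT 1 to 5, and 1.56 to 2.21 M in db/db Dapa 1 to 5 and db/db vehicle 4 and 5. Each comparison was therefore made inside 1 set: db/db vehicle against WT in the deep libraries (3 against 5), and db/db Dapa against db/db vehicle in the shallow ones. The read numbers of db/db Dapa 2 and 3 differed by no more than sampling noise, so their mean was counted as 1 sample, which leaves 4 dapagliflozin samples against 2. Between vehicle libraries 4 and 5 and vehicle libraries 1 to 3, which carry the same label, 61.0% of 12872 tested genes differed at an adjusted p under 0.05 in limma, so levels are not compared across sets. As a check of the tissue, the summed FPKM of 6 proximal tubule markers was 2826 to 3827 in db/db vehicle 1 to 3 and 3833 to 4388 in WT. Of 5 fat markers, Adipoq, Plin1, Retn and Ucp1 were under 0.1 FPKM in every library.

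Promoter sequence is shown for 4 members that differed between db/db vehicle and WT kidneys in the deep libraries, as the 250 bases before the transcription start in RefSeq (build GRCm38.p6, read 5′ to 3′ on the gene's strand). Capitals mark an E-box (CACGTG), an E-prime box (CACGTT, which reads AACGTG on the other strand) or a D-box (TTATGTAA or TTACGTAA).
Per1 (chr11:69098699-69098948, plus strand): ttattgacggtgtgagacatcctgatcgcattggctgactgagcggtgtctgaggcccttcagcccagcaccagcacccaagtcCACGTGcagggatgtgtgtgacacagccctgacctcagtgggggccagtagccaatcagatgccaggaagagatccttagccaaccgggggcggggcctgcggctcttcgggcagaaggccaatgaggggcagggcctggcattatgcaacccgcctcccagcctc
Per3 (chr4:151044666-151044915, minus strand): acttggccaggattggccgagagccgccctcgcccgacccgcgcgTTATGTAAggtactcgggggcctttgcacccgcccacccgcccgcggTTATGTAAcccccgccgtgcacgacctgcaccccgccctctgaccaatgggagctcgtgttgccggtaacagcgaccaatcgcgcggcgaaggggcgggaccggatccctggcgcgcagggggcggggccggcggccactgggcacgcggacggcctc
Cry1 (chr10:85185055-85185304, minus strand): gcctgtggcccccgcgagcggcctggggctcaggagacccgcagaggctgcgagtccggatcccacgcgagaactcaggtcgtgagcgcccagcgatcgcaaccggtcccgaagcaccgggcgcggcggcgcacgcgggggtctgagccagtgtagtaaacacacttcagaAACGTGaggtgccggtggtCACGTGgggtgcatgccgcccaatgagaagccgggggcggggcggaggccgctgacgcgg
Npas2 (chr1:39194022-39194271, plus strand): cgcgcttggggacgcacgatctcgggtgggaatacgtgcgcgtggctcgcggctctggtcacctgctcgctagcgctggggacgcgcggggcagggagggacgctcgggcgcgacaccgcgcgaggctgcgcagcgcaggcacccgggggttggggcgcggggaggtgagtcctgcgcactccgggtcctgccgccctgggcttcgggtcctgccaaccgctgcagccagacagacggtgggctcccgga
The Per1 window held 1 E-box, with its first base at position -166 from the start. The Per3 window held 2 D-boxes, at -205 and -158. The Cry1 window held an E-prime box at -79 and an E-box at -60. No searched motif was found in the Npas2 window.

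Windows of 300 bases, the 250 before the start and 50 after it, were searched on both strands for these motifs, for the ROR/REV-ERB response element and for the cAMP response element (TGACGTCA). Of the 10 members, 9 matched by symbol with 13 windows in all, Per2 being the one without. Nr1d1 held an E-prime box at -28, and the 2 windows of Tef held an E-box at -127 and at -138. Nr1d2, Clock, Dbp and the second Per1 window held none of the motifs. Over all 32851 mouse promoter windows of this length, 7.15% held an E-box, 4.68% an E-prime box, 1.06% a D-box, 0.384% a ROR/REV-ERB response element and 1.79% a cAMP response element. These matches describe letters and do not show that a factor binds there.

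In db/db vehicle kidneys, the 3 Period genes and Cry1 were expressed at about 2 to 3 times their level in WT kidneys, and Npas2, an activator, was at a ratio of 0.414. Of these, Per3 was not called relative to the median gene. Clock, the REV-ERB repressors Nr1d1 and Nr1d2, Dbp and Tef did not pass the test. In limma on log2(FPKM + 1), with Benjamini-Hochberg adjustment over all 12314 genes tested, 4 of the 10 members rose and 1 fell at an adjusted p under 0.05. The background was high: 52.7% of all tested genes passed, 41.6% being higher and 11.1% lower in db/db vehicle, so that 5 of 10 is near the share of all genes. The median log2 fold change was 0.25 over the members and 0.17 over all tested genes. Under median-of-ratios scaling, which puts the median of all genes at -0.00, 3 members rose and 1 fell, against 43.7% of all genes called, 19.2% higher and 24.6% lower. The libraries of the groups did not overlap for 3 members, all higher in db/db vehicle, and for 49.0% of all tested genes, 38.3% higher and 10.7% lower. That scaling also changed the share of called genes that were higher in db/db vehicle to 43.9%, against 78.9% as deposited, so the values relative to the median gene are given beside the deposited ones. A log2 fold change of FPKM + 1 understates the change of a gene of low expression, so ratios of mean FPKM are given too.

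Per1 encodes a PERIOD protein of the repressing arm, and in mouse it is also induced by glucocorticoids and cAMP signals. It had 5.20, 8.80 and 7.86 FPKM in db/db vehicle 1, 2 and 3, against 3.09, 2.28, 2.004, 3.62 and 2.54 FPKM in WT 1 to 5. Every db/db vehicle library lay above every WT library. The means were 7.29 ± 1.87 FPKM in db/db vehicle (SD, n = 3) and 2.71 ± 0.650 FPKM in WT (SD, n = 5), a ratio of 2.69. The log2 fold change in limma was 1.15 (95% interval 0.75 to 1.55, adjusted p = 0.0009), and 0.98 relative to the median gene (adjusted p = 0.0021).

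Per2 encodes the PERIOD protein that binds cryptochromes in the main repressor complex. It had 5.70, 6.98 and 10.3 FPKM in db/db vehicle 1, 2 and 3, against 2.52, 2.28, 2.78, 4.99 and 1.99 FPKM in WT 1 to 5. The groups did not overlap, though WT 4 came close to the lowest db/db vehicle library. The means were 7.65 ± 2.36 FPKM in db/db vehicle (SD, n = 3) and 2.91 ± 1.20 FPKM in WT (SD, n = 5), a ratio of 2.63. In limma the log2 fold change was 1.16 (95% interval 0.62 to 1.69, adjusted p = 0.0035), and 0.99 relative to the median gene (adjusted p = 0.0089).

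Per3, the third Period gene, is not needed for a running clock in mouse. It had 4.72, 5.45 and 9.33 FPKM in db/db vehicle 1, 2 and 3, against 2.54, 3.06, 2.58, 5.86 and 2.62 FPKM in WT 1 to 5. The groups overlapped through WT 4, which was above db/db vehicle 1 and 2. The ratio of means was 1.95 (6.50 ± 2.48 FPKM in db/db vehicle and 3.33 ± 1.43 FPKM in WT, SD). Its log2 fold change was 0.79 (95% interval 0.22 to 1.37, limma, adjusted p = 0.0275). The call was the least stable of the 5. Relative to the median gene the log2 fold change was 0.62 (limma, adjusted p = 0.0709). It was 0.54 without db/db vehicle 3 (limma, adjusted p = 0.115), and 0.73 to 0.78 with WT 1, 2, 3 or 5 left out (limma, adjusted p of 0.0520 to 0.0575). Without WT 4 it was 0.97 (limma, adjusted p = 0.0040).

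Cry1 encodes a cryptochrome, the strong repressor of CLOCK/BMAL1. It had 2.06, 1.52 and 2.02 FPKM in db/db vehicle 1, 2 and 3, against 0.544, 0.560, 0.624, 0.787 and 0.749 FPKM in WT 1 to 5, where it was the lowest of the members. These values rest on 90 to 130 reads per library in db/db vehicle and 35 to 49 in WT. No WT library reached the lowest db/db vehicle library, and the ratio of means, 2.86, was the highest of the 10 members. Its change on the log2 scale was 0.79 (95% interval 0.58 to 1.00, limma, adjusted p = 0.0002), 0.68 relative to the median gene (adjusted p = 0.0004), and 1.38 with a pseudocount of 0.1 FPKM in place of 1. Its relative Cry2, which was not among the members, had a log2 fold change of 0.36 (limma, adjusted p = 0.0252) and of 0.18 relative to the median gene (adjusted p = 0.214). The ratio of Cry1 to Cry2 FPKM was 0.262, 0.190 and 0.185 in db/db vehicle 1, 2 and 3, against 0.0837, 0.0828, 0.102, 0.0999 and 0.121 in WT 1 to 5.

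**Figure D1:**
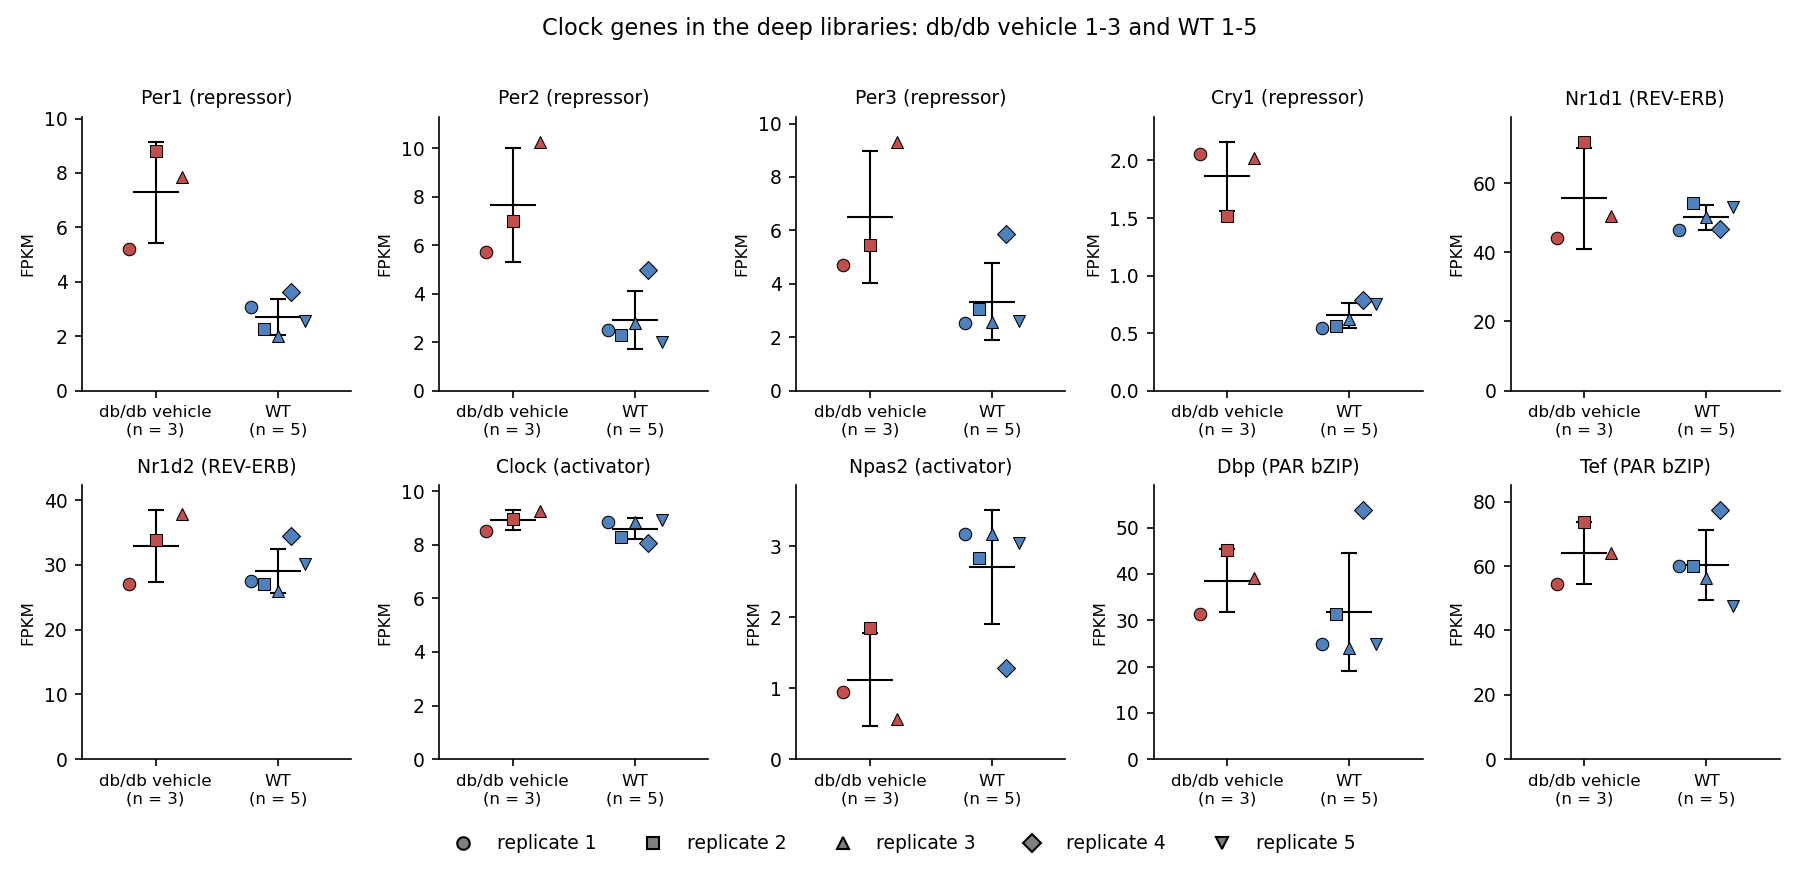
FPKM of each of the 10 clock genes in the deep libraries, db/db vehicle 1 to 3 on the left and WT 1 to 5 on the right of each panel; symbols mark the replicate number, the horizontal bar is the mean and the whiskers are 1 SD. Per1, Per2 and Cry1 are separated between the groups, and WT 4 (diamond) lies apart from the other WT libraries for Per2, Per3, Npas2 and Dbp.

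The other member that passed the test, Npas2, encodes a relative of CLOCK that pairs with BMAL1 in its place. It had 0.946, 1.84 and 0.570 FPKM in db/db vehicle 1, 2 and 3, from 64, 117 and 36 reads. In WT 1 to 5 it had 3.18, 2.84, 3.18, 1.29 and 3.04 FPKM, from 219, 190, 207, 84 and 213 reads. The db/db vehicle libraries were lower than every WT library except WT 4, which lay below db/db vehicle 2. The means were 1.12 ± 0.654 FPKM in db/db vehicle (SD, n = 3) and 2.70 ± 0.805 FPKM in WT (SD, n = 5), a ratio of 0.414. On the log2 scale the change was -0.82 (95% interval -1.36 to -0.27, limma, adjusted p = 0.0193), -0.93 relative to the median gene (adjusted p = 0.0129), and -1.27 with a pseudocount of 0.1 FPKM. The call was lost without db/db vehicle 1 (-0.78, limma, adjusted p = 0.0522) and without db/db vehicle 3 (-0.62, limma, adjusted p = 0.0832). Without WT 4 it was -0.98 (limma, adjusted p = 0.0033).

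Clock, the usual partner of BMAL1, had the smallest log2 fold change of the members as deposited. It had 8.52, 8.97 and 9.25 FPKM in db/db vehicle 1, 2 and 3, against 8.86, 8.30, 8.84, 8.07 and 8.92 FPKM in WT 1 to 5. Its log2 fold change was 0.05 (95% interval -0.08 to 0.17, limma, adjusted p = 0.478), and -0.14 relative to the median gene (adjusted p = 0.0811), so its sign depends on the scaling.

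Nr1d1, which encodes REV-ERB alpha, had 44.2, 72.0 and 50.6 FPKM in db/db vehicle 1, 2 and 3, against 46.5, 54.3, 50.2, 46.7 and 53.0 FPKM in WT 1 to 5. The groups overlapped, and db/db vehicle 2 alone stood above the WT libraries. The log2 fold change was 0.12 (95% interval -0.19 to 0.43, limma, adjusted p = 0.479) and was -0.08 both without db/db vehicle 2 and relative to the median gene. Nr1d2, which encodes REV-ERB beta, had 27.0, 33.9 and 37.9 FPKM in db/db vehicle 1, 2 and 3, against 27.6, 27.0, 26.0, 34.4 and 30.1 FPKM in WT 1 to 5. Its groups overlapped as well. Its log2 fold change was 0.17 (95% interval -0.10 to 0.44, limma, adjusted p = 0.246), -0.03 relative to the median gene, and 0.30 without db/db vehicle 1 (limma, adjusted p = 0.0424).

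Dbp encodes a PAR bZIP activator and is one of the most strongly rhythmic transcripts of mouse organs. It had 31.4, 45.1 and 39.2 FPKM in db/db vehicle 1, 2 and 3, against 24.9, 31.4, 24.0, 53.8 and 24.9 FPKM in WT 1 to 5. WT 4 was the highest of all 8 libraries, WT 2 was level with the lowest db/db vehicle library, and WT 1, 3 and 5 were lower. The log2 fold change was 0.33 with all libraries (95% interval -0.24 to 0.89, limma, adjusted p = 0.292) and 0.13 relative to the median gene (limma, adjusted p = 0.712). Without WT 4 it was 0.53 (limma, adjusted p = 0.0126). Tef, a relative of Dbp, had the highest group means of the members in the deep libraries. It had 54.6, 73.8 and 64.0 FPKM in db/db vehicle 1, 2 and 3, against 60.1, 60.1, 56.1, 77.4 and 47.6 FPKM in WT 1 to 5. Its groups overlapped, with a log2 fold change of 0.09 (95% interval -0.23 to 0.42, limma, adjusted p = 0.597), which was -0.11 relative to the median gene and -0.01 without db/db vehicle 2. In the GRCm38 annotation, Nr1d1 overlaps Thra, Dbp overlaps Sphk2 and Tef overlaps the antisense gene Gm17597, each on the opposite strand. The strand setting of the authors' counting is not given in the sources used here, so these 3 values are uncertain to that extent.

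**Figure D2:**
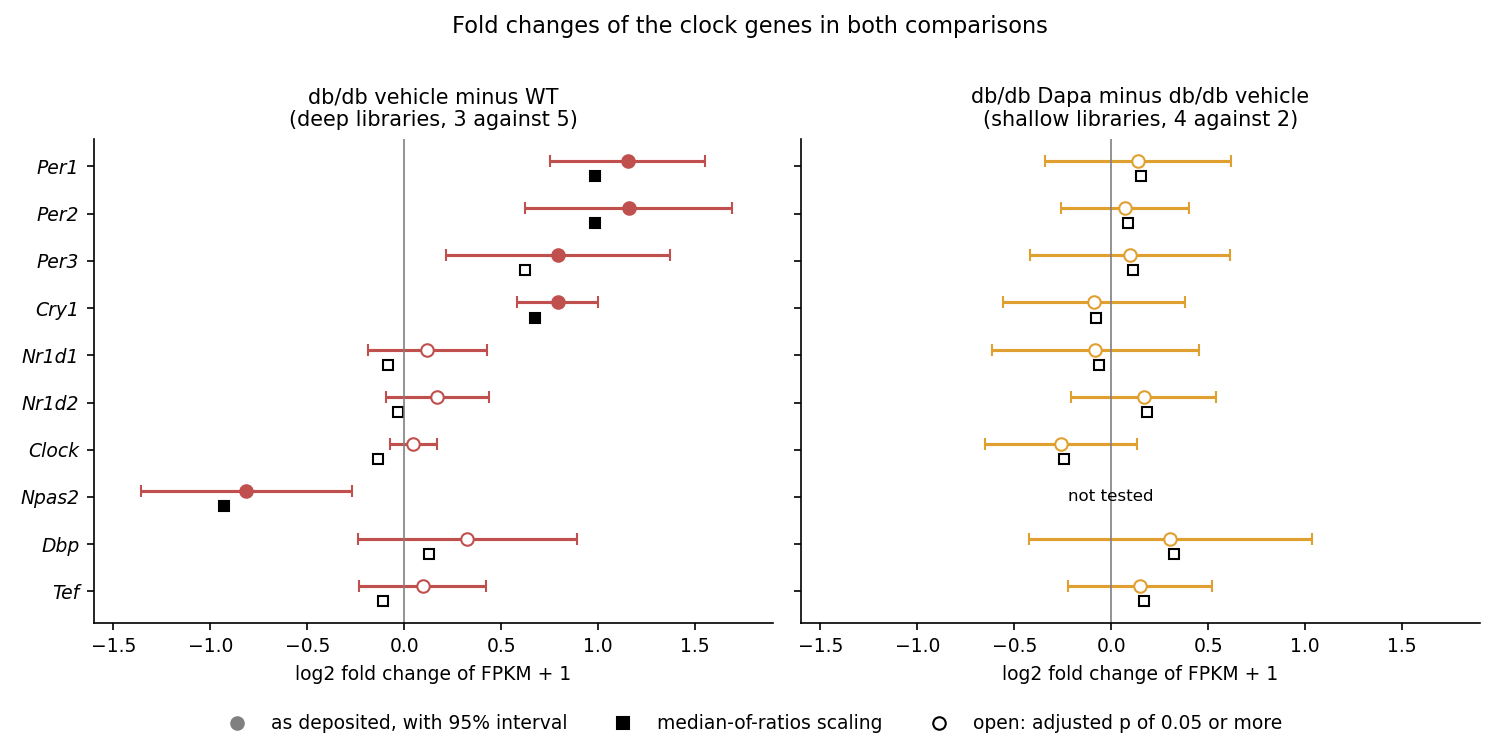
Log2 fold change of FPKM + 1 for each clock gene, for db/db vehicle minus WT in the deep libraries (left panel) and for db/db Dapa minus db/db vehicle in the shallow libraries (right panel). Circles with 95% intervals are the deposited values and squares the median-of-ratios scaling; filled symbols have an adjusted p under 0.05 in limma, as Per1, Per2, Cry1 and Npas2 do on the left under both scalings, and no gene does on the right.

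Ranked by mean FPKM, the members kept a similar order in both groups. In db/db vehicle 1 to 3 the order was Tef (64.1), Nr1d1 (55.6), Dbp (38.5), Nr1d2 (32.9), Clock (8.92), Per2 (7.65), Per1 (7.29), Per3 (6.50), Cry1 (1.86) and Npas2 (1.12). In WT it was Tef (60.3), Nr1d1 (50.1), Dbp (31.8), Nr1d2 (29.0), Clock (8.60), Per3 (3.33), Per2 (2.91), Per1 (2.71), Npas2 (2.70) and Cry1 (0.653). In both groups the output and REV-ERB genes stood above Clock with no overlap of libraries. Neighbours within the upper 4 overlapped in both groups, Nr1d1 and Dbp only narrowly in db/db vehicle and only through WT 4 in WT. In db/db vehicle the Period genes overlapped each other and Clock, and Cry1 and Npas2 overlapped below them. In WT the Period genes and Npas2 overlapped each other, lay below Clock and lay above Cry1.

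Among the WT libraries, WT 4 lay farthest from the rest for Per2, Per3, Npas2 and Dbp. It was the highest of the 5 WT libraries for 7 members, Per1, Per2, Per3, Cry1, Nr1d2, Dbp and Tef, and the lowest for 2, Clock and Npas2, though for Cry1 and Clock it was close to the next WT library. Of the genes outside the members, Ciart, a repressor of CLOCK/BMAL1, had 4.76 FPKM in WT 4 and 0.872 to 1.33 FPKM in the other WT libraries. Arntl had 0.169 FPKM in WT 4 and 0.519 to 0.618 FPKM in the others. Nr1d1 did not follow, with 46.7 FPKM in WT 4 and 46.5 to 54.3 FPKM in the other WT libraries. For Per1, Per2, Per3, Cry1 and Npas2, WT 4 was the WT library nearest to the db/db vehicle mean. The SD of log2(FPKM + 1) over the 5 WT libraries was 0.48 for Dbp, above that of 99.0% of the 12314 tested genes, 0.41 for Per3 (98.5%), 0.39 for Per2 (98.2%) and 0.37 for Npas2 (98.0%). It was 0.06 for Clock, above that of 21.9% of tested genes. The added 1 FPKM shrinks this SD in genes of low expression, so these shares depend partly on level. Without WT 4 the SD of Per3 was 0.09 (54.0%) and that of Npas2 0.06 (26.0%), while those of Per1 and Dbp were 0.19 (88.5%) and 0.17 (85.8%).

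The db/db vehicle libraries also spread. Across db/db vehicle 1 to 3, the SD of log2(FPKM + 1) was 0.45 for Per3, above that of 95.7% of tested genes, 0.43 for Npas2 (95.2%), 0.38 for Per2 (93.4%), 0.36 for Nr1d1 (92.5%) and 0.35 for Per1 (92.0%). It was 0.05 for Clock (15.6%) and 0.16 for Cry1 (65.2%), a gene of low expression. As a share of mean FPKM, the SD was 16.1% for Cry1 and 16.7% for Nr1d2, whose SD on the log2 scale was 0.24 (83.5%). The lowest of the 3 was db/db vehicle 1 for 8 of the 10 members, the exceptions being Cry1, for which it was the highest, and Npas2. The opposed levels of Dbp and Npas2 can be put as 1 ratio, a measure chosen after the values were seen. Dbp FPKM divided by Npas2 FPKM was 33.2, 24.4 and 68.7 in db/db vehicle 1, 2 and 3, against 7.83, 11.1, 7.55, 41.8 and 8.18 in WT 1 to 5. WT 4 fell among the db/db vehicle libraries, and the other WT libraries lay well below all of them.

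**Figure D3:**
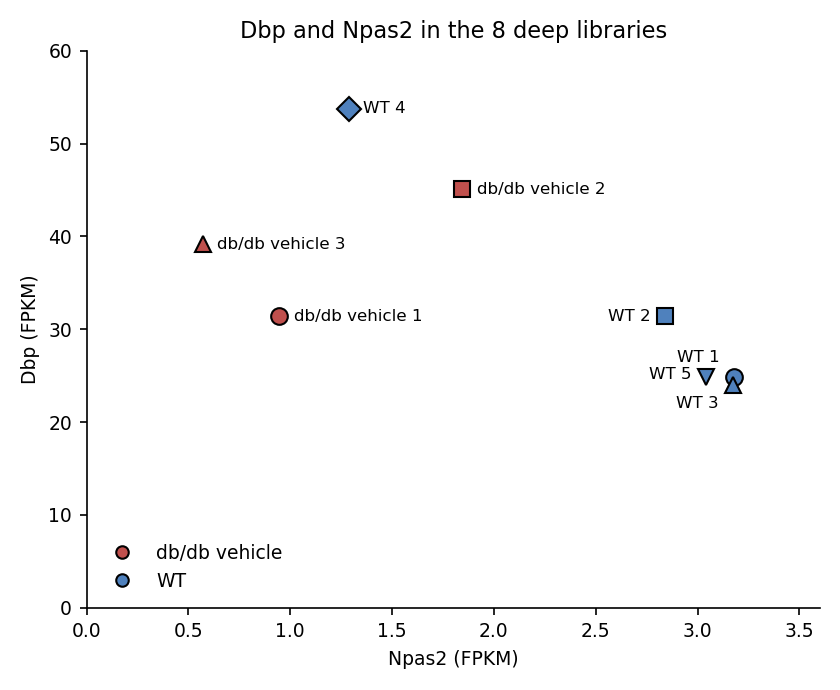
Dbp FPKM (vertical axis) against Npas2 FPKM (horizontal axis) in each of the 8 deep libraries, db/db vehicle in red and WT in blue, 1 labelled symbol per library. WT 1, 2, 3 and 5 lie together at 2.84 to 3.18 FPKM of Npas2, while WT 4, at 1.29 and 53.8 FPKM, lies among the db/db vehicle libraries in Npas2 and above them in Dbp.

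Other genes of the clock were counted as a list of 19 names, of which 18 were in the table and 15 passed the filter of a mean of 0.5 FPKM. Of the 15, 7 rose and 2 fell in db/db vehicle relative to WT, with a median log2 fold change of 0.17, the same as that of all tested genes. These counts are to be read against all tested genes, of which 41.6% were higher and 11.1% lower. With median-of-ratios scaling 4 were higher and 5 lower at an adjusted p under 0.05, against 19.2% and 24.6% of all tested genes. Csnk1e, a kinase that marks PERIOD proteins for breakdown, rose by 0.61 on the log2 scale (limma, adjusted p = 0.0006) and stayed called relative to the median gene (0.47, adjusted p = 0.0018). Nfil3, a bZIP repressor that competes with DBP at D-boxes, rose by 0.46 (limma, adjusted p = 0.0044) and by 0.33 relative to the median gene (adjusted p = 0.0210). The repressors Bhlhe40 and Bhlhe41, also named DEC1 and DEC2, rose by 0.92 and 0.70 (limma, adjusted p = 0.0131 and 0.0162), with 0.72 and 0.57 relative to the median gene. Fbxl21, a ubiquitin ligase subunit that acts on cryptochromes, fell by 0.37 (limma, adjusted p = 0.0083).

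Hlf, Ciart and Arntl were named whatever their values. Hlf, the third PAR bZIP gene, had 34.2 to 35.5 FPKM in db/db vehicle and 28.2 to 36.0 FPKM in WT (log2 fold change 0.17, limma, adjusted p = 0.0887). Ciart had 1.70, 5.12 and 3.30 FPKM in db/db vehicle 1, 2 and 3, overlapping WT through WT 4 (log2 fold change 0.70, limma, adjusted p = 0.154). Arntl, the gene of BMAL1, was under the filter, with 0.415, 0.453 and 0.206 FPKM in db/db vehicle 1, 2 and 3, against 0.533, 0.618, 0.519, 0.169 and 0.562 FPKM in WT 1 to 5. The filter is set on FPKM, and in reads Arntl had 127, 130 and 59 in db/db vehicle 1, 2 and 3, against 50 to 187 in WT. Its db/db vehicle libraries lay below every WT library except WT 4, which was the lowest of the 8.

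**Figure D4:**
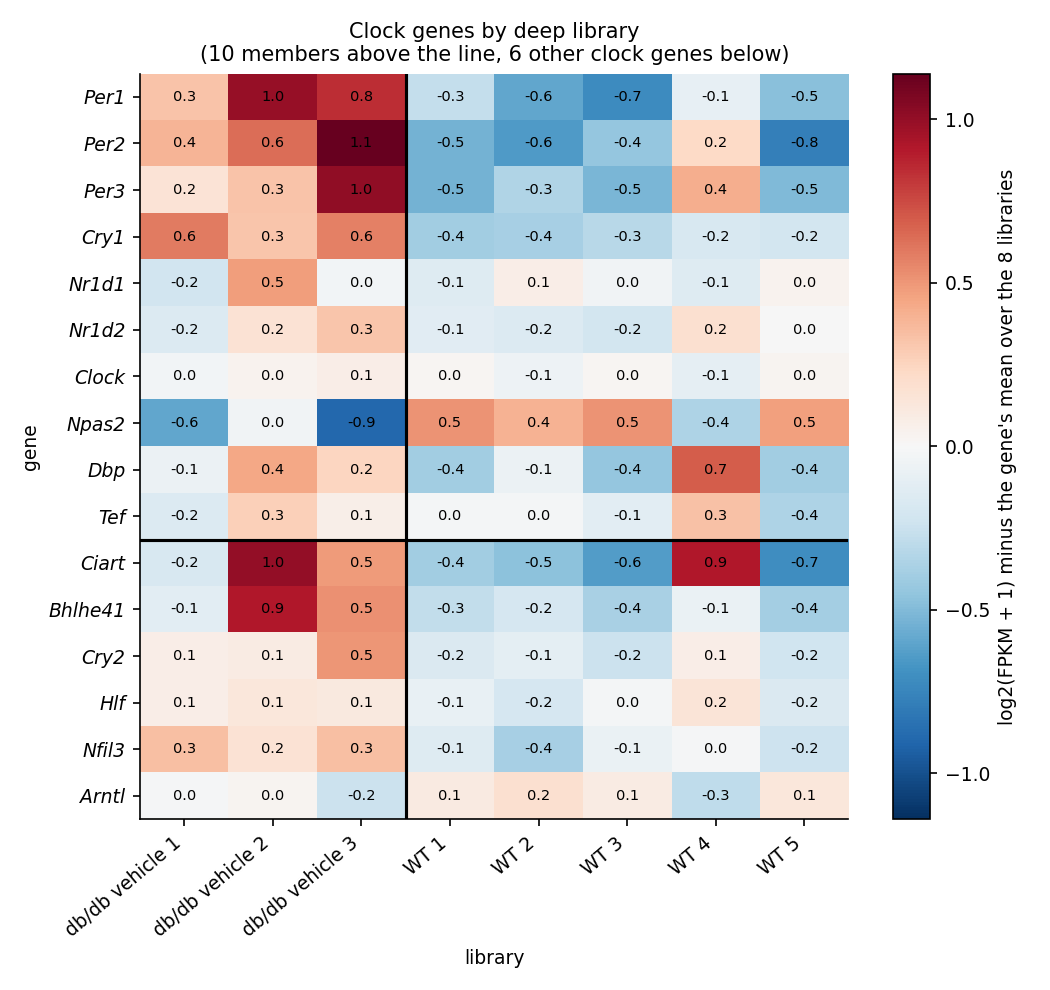
Log2(FPKM + 1) of the 10 clock genes (above the line) and 6 other clock genes (below it) in the 8 deep libraries, each minus the gene's mean over those libraries; db/db vehicle columns are on the left and WT on the right. The Period genes and Cry1 are above their mean in the 3 db/db vehicle libraries and Npas2 is above its mean in WT 1, 2, 3 and 5, while WT 4 has high Dbp and Ciart with low Npas2 and Arntl.

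Genes downstream of the clock, and genes induced by signals that also induce Per1, were counted as lists in the same fit. These lists were chosen with earlier results of these data known, so their counts are description only. Of 10 clock-output genes that are rhythmic in many mouse organs, 4 rose and 0 fell in db/db vehicle (median log2 fold change 0.33), near the 41.6% of all tested genes that were higher. With median-of-ratios scaling 3 were higher and 2 lower. The 4 that rose were Wee1, a cell cycle kinase (0.84, limma, adjusted p = 0.0024), Noct, a phosphatase with a daily rhythm (0.83, adjusted p = 0.0047), Nampt, the enzyme of NAD salvage (0.47, adjusted p = 0.0045), and Tsc22d3 (0.52, adjusted p = 0.0368), which was not called relative to the median gene (0.34, adjusted p = 0.152). Of 11 tested glucocorticoid-induced genes, 8 rose and 0 fell (median 0.52), against 41.6% of all tested genes higher and 11.1% lower. With median-of-ratios scaling 5 were higher and 1 lower, against 19.2% and 24.6% of all tested genes. The kinase Sgk1 had a log2 fold change of 1.62, the GR co-chaperone Fkbp5 1.14, the metallothioneins Mt1 and Mt2 1.81 and 1.72, and Cebpd 0.70, all 5 also called relative to the median gene. Ddit4 had 0.44 (limma, adjusted p = 0.0201), and 0.25 relative to the median gene (adjusted p = 0.143). Of 10 tested cAMP-responsive and immediate early genes, 7 rose and 0 fell (median 0.52), to be read against the same shares of all genes. With median-of-ratios scaling 2 of them, Fosl2 and Jun, were higher, at 0.80 and 0.48 (limma, adjusted p = 0.0015 and 0.0096), and 1 was lower. Nr4a1, Fos, Junb and Ier2 had log2 fold changes of 1.00, 0.81, 0.49 and 0.35 as deposited, and adjusted p values of 0.0512 to 0.118 relative to the median gene. The part of these genes in the Period values was not tested.

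Markers of kidney cell types also moved between the groups. Their counts are to be read against all tested genes, of which 41.6% were higher and 11.1% lower in db/db vehicle. With median-of-ratios scaling these shares were 19.2% and 24.6%. Of 6 proximal tubule markers 5 fell in db/db vehicle. All 3 distal convoluted tubule markers rose, with summed FPKM of 515 to 695 in db/db vehicle and 244 to 311 in WT. Of 5 collecting duct markers 4 rose (346.5 to 402 FPKM in db/db vehicle and 194 to 239.9 in WT), and all 4 podocyte markers rose (67.4 to 71.5 FPKM in db/db vehicle and 33.5 to 45.03 in WT). Macrophage markers summed to 38.4 to 122 FPKM in db/db vehicle and 39.4 to 61.7 in WT, with 3 of 6 higher at an adjusted p under 0.05 and 0 with median-of-ratios scaling. Of 2 thick ascending limb, 4 endothelial and 5 erythrocyte markers, 0, 1 and 0 were higher and 0 were lower. With median-of-ratios scaling the proximal, distal and podocyte counts were the same, 3 collecting duct markers were higher, and 1 thick ascending limb and 2 endothelial markers were lower. The part of these markers in the clock gene values was not tested, and in whole kidney RNA a change in the number of cells of a type and a change in RNA per cell cannot be told apart.

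Genes whose log2(FPKM + 1) followed a member most closely over the 8 deep libraries were named by Pearson's r, 3 for each member but 2 for Npas2. They are a description, since 12314 genes were searched over 8 libraries in 2 groups. Napb (r = 0.998), Srsf11 and Mfsd4b4 were nearest to Per1, Lmo7 (0.981), Tle2 and Sesn3 to Per2, and Amer1 (0.981), Sfxn4 and P2ry1 to Per3. Plpp5 (0.996), Sgk1 (0.995) and Arl4c were nearest to Cry1. Grhpr (0.985) and Gfer were near to Npas2, and Fmo1 (0.960), Plekha7 and Amotl2 to Dbp. Nadk2 (0.974), Zfp974 and Glcci1 were nearest to Nr1d2, and Chchd5 (0.989), Sirt3 and Zfp354a to Tef. Usp38 (0.958), Tff1 and Repin1 were nearest to Nr1d1, and B3galt6 (0.948), Zfp867 and Reep3 to Clock. Among these genes was no member, and Sgk1 was the one gene from the lists above.

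With dapagliflozin, no clock gene was detectably different from db/db vehicle in the shallow libraries. Of the 10 members 9 passed the filter and 0 were called by limma at an adjusted p under 0.05, against 0.0% of all 12868 tested genes. At an unadjusted p under 0.05 limma gave 0 of the 9 members and 723 of the 12868 genes. For every member the dapagliflozin and vehicle libraries overlapped, while 15.4% of tested genes did not overlap, 7.04% being higher and 8.36% lower with dapagliflozin. Only 4 samples were set against 2, so the intervals are wide.

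Values of the Period genes and Cry1 overlapped between the groups. Per1 had 7.95, 6.13, 5.01, 5.35 and 5.68 FPKM in db/db Dapa 1 to 5, against 4.33 and 6.75 FPKM in db/db vehicle 4 and 5. Per2 had 10.4, 10.01, 12.4, 10.01 and 8.41 FPKM in db/db Dapa 1 to 5, against 8.51 and 10.4 FPKM in db/db vehicle 4 and 5. In both, vehicle 4 was the lower vehicle library and the dapagliflozin libraries lay on both sides of the pair's mean. The log2 fold changes were 0.14 for Per1 (95% interval -0.34 to 0.62) and 0.07 for Per2 (-0.26 to 0.40). Per3 had 2.67, 2.72, 3.21, 2.81 and 1.80 FPKM in db/db Dapa 1 to 5, against 1.70 and 3.04 FPKM in db/db vehicle 4 and 5. Cry1 had 1.48, 1.05, 0.941, 1.65 and 2.09 FPKM in db/db Dapa 1 to 5, against 1.52 and 1.86 FPKM in db/db vehicle 4 and 5, from 6 to 19 reads a library. Their log2 fold changes were 0.10 (95% interval -0.42 to 0.61) and -0.09 (-0.56 to 0.38).

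The REV-ERB, output and activator genes gave no call either. Nr1d1 had 75.1, 106, 93.1, 58.4 and 55.0 FPKM in db/db Dapa 1 to 5, on both sides of the 73.2 and 75.2 FPKM in db/db vehicle 4 and 5 (log2 fold change -0.08). Nr1d2 had 26.3, 21.9, 20.1, 19.4 and 18.0 FPKM in db/db Dapa 1 to 5, against 17.0 and 20.3 FPKM in db/db vehicle 4 and 5 (0.17). Of these receptors, Nr1d2 was above both vehicle libraries in db/db Dapa 1 and 2 and Nr1d1 in 2 and 3, which count as 1 sample. Dbp had 55.8, 62.1, 64.1, 54.6 and 31.0 FPKM in db/db Dapa 1 to 5, against 30.6 and 51.9 FPKM in db/db vehicle 4 and 5. Its log2 fold change, 0.30, was the highest of the 9 (95% interval -0.42 to 1.03, limma, adjusted p = 0.949). Of the 5 dapagliflozin libraries 4 were above both vehicle libraries and db/db Dapa 5 was not. The 4 include db/db Dapa 2 and 3, which count as 1 sample. Tef had 40.2, 38.5, 37.5, 36.3 and 29.5 FPKM in db/db Dapa 1 to 5, against 27.9 and 37.2 FPKM in db/db vehicle 4 and 5 (0.15). Clock had 3.39, 3.36, 3.39, 3.14 and 4.62 FPKM in db/db Dapa 1 to 5, against 5.06 and 3.997 FPKM in db/db vehicle 4 and 5. Its log2 fold change was -0.26 (95% interval -0.65 to 0.13, limma, adjusted p = 0.920), and db/db Dapa 5 was the dapagliflozin library that overlapped the vehicle pair.

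Npas2 was too low in the shallow libraries to be tested. It had 2, 1, 0, 0 and 4 reads in db/db Dapa 1 to 5, against 5 and 2 reads in db/db vehicle 4 and 5. Over 9.14 M and 3.76 M reads, these are 7 reads in each group, a ratio of 0.412 (exact 95% interval 0.123 to 1.38, counting error only). The reads of db/db Dapa 2 and 3 were added up separately here. A difference in Npas2 was not detectable at this depth. A count of 0 allows up to 3 reads per library, which is 0.308 to 0.440 FPKM of Npas2 in the shallow libraries.

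**Figure D5:**
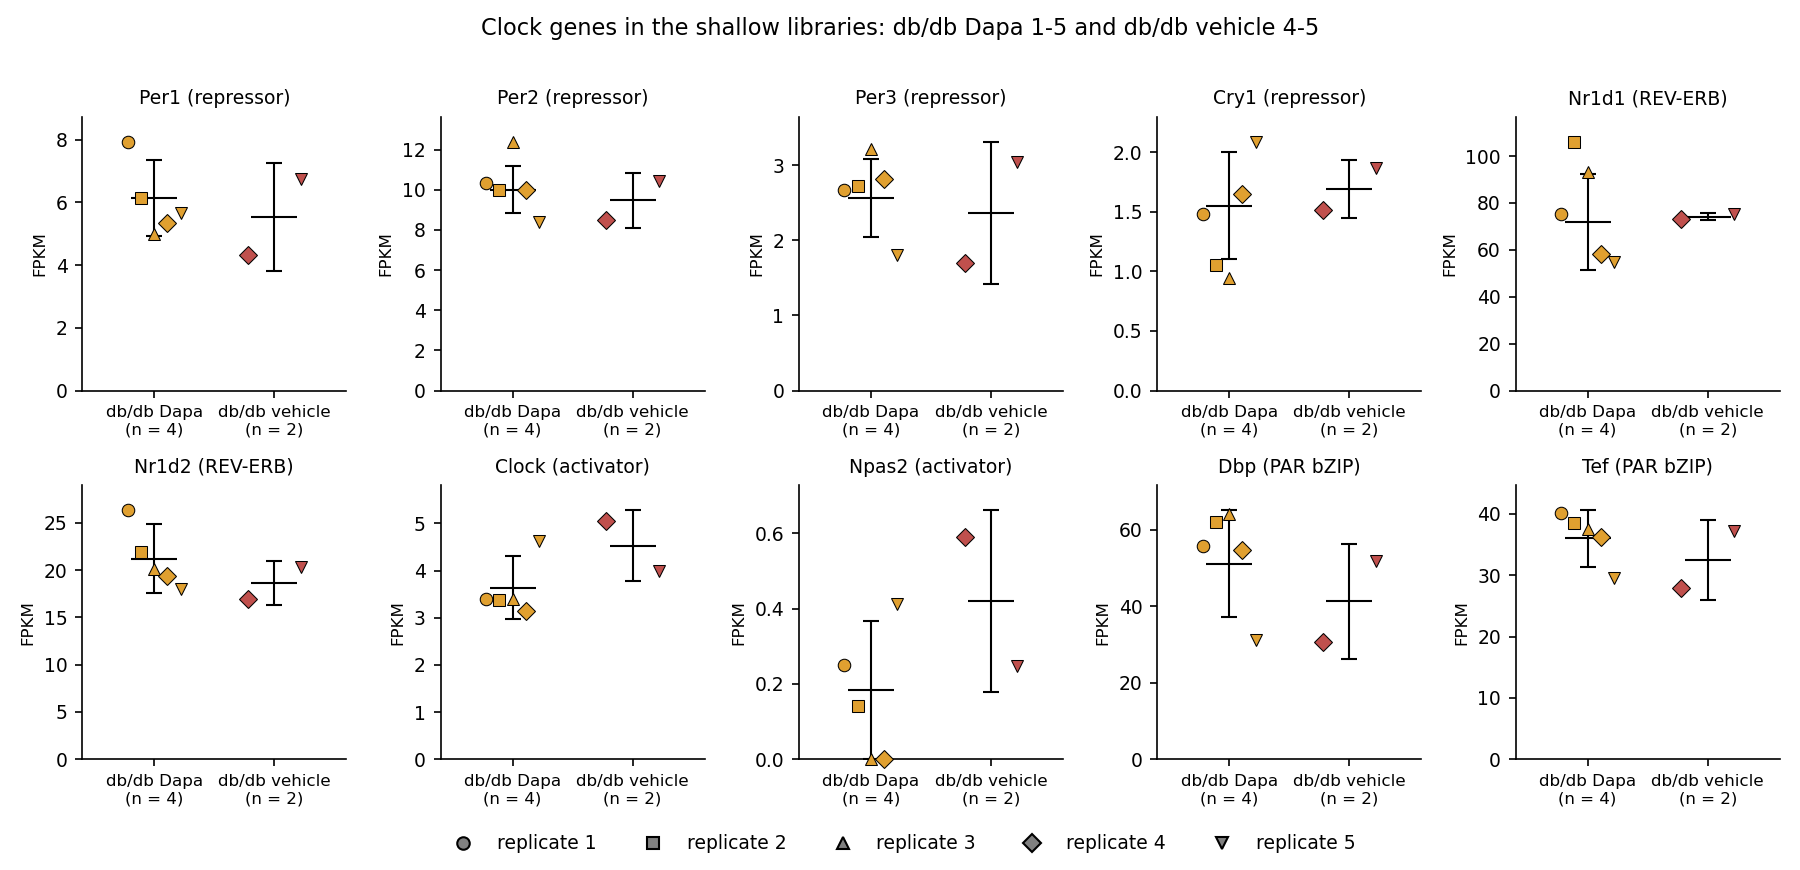
FPKM of each of the 10 clock genes in the shallow libraries, db/db Dapa 1 to 5 on the left and db/db vehicle 4 and 5 on the right of each panel; symbols mark the replicate number, the horizontal bar is the mean and the whiskers are 1 SD, with db/db Dapa 2 and 3 averaged to 1 sample (n = 4). The groups overlap for every gene, and Npas2 is at 0 in db/db Dapa 3 and 4.

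The shallow libraries varied among themselves, with a pattern that was not particular to the clock genes. Between the vehicle libraries, db/db vehicle 4 was lower than db/db vehicle 5 for 8 members and higher for Clock and Npas2. Among the dapagliflozin libraries, db/db Dapa 5 was the lowest of the 5 for 6 members, Per2, Per3, Nr1d1, Nr1d2, Dbp and Tef, and the highest for 3, Cry1, Clock and Npas2. Cry1 thus went opposite ways in db/db vehicle 4 and db/db Dapa 5. Over 12869 genes, the deviations of these 2 libraries from their group means correlated at 0.72. They also had 15039 and 15183 genes above 0 FPKM, against 14474 to 14561 in the other shallow libraries. This number depends on depth too, which was 1.93 M and 2.21 M reads in these 2 libraries and 1.56 to 1.93 M in the others. Leaving out db/db vehicle 4 turned the sign of the log2 fold change for Per1 (-0.13), Per2 (-0.06), Per3 (-0.19), Dbp (-0.07) and Tef (-0.05). None of these differences had passed the test. The other clock genes gave 0 calls of 15 tested, and the clock-output, glucocorticoid-induced and immediate early lists 0 of 10, 0 of 11 and 0 of 10. At an unadjusted p under 0.05 in limma the clock-output list held 4 genes and the glucocorticoid-induced list 4. Among them was Tsc22d3, which is on both (log2 fold change 0.70, limma, adjusted p = 0.845). At that threshold the other clock genes held 1, the immediate early list 1 and the members 0, against 723 of all 12868 tested genes. Erythrocyte markers summed to 22.6 to 68.2 FPKM in db/db Dapa and 13.6 to 21.1 FPKM in db/db vehicle 4 and 5, and the part of blood in these values was not tested.

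The size of the difference between library sets is shown by the db/db vehicle group itself. In 1 fit over all libraries, 4 of the 10 members, Per3, Nr1d2, Clock and Tef, were lower in db/db vehicle 4 and 5 than in db/db vehicle 1 to 3, against 42.3% of all tested genes that were lower and 18.7% that were higher. Tef averaged 32.5 FPKM in db/db vehicle 4 and 5 and 64.1 FPKM in db/db vehicle 1 to 3 (log2 fold change -0.96, limma, adjusted p = 0.0005). Clock averaged 4.53 FPKM in db/db vehicle 4 and 5 and 8.92 FPKM in db/db vehicle 1 to 3 (-0.85, adjusted p = 4.1e-05), a larger difference than any between Clock's groups inside a set. Per3 and Nr1d2 differed by -1.13 and -0.78 (limma, adjusted p = 0.0052 and 0.0010). Over all tested genes the median was -0.25. With median-of-ratios scaling the same 4 stayed called as lower and Nr1d1 was called as higher (0.73, limma, adjusted p = 0.0245), against 52.4% of all genes called, 27.4% higher and 25.0% lower. Of 7 adrenal markers, 3 were in the table, and 1 of them, Star, the cholesterol carrier of steroid synthesis, makes up nearly all of their sum. Star had 11.9 to 12.05 FPKM in db/db vehicle 4 and 5, against 0.436 to 0.533 FPKM in db/db vehicle 1 to 3. Cyp21a1 and Dbh averaged 0.131 and 0.110 FPKM in db/db vehicle 4 and 5, each with 0 in 1 of these libraries, and were at 0 in db/db vehicle 1 to 3. The part of these genes in the set difference was not tested.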

How the data were processed

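Per the labels' protocols, kidney RNA was prepared with mirVana reagents and sequenced from stranded TruSeq mRNA libraries. The authors deposited 1 table of FPKM (fragments scaled to transcript length and mapped reads) covering 17832 genes in 15 libraries. The tools named in the submitters' processing notes are Cufflinks, HISAT2, HTSeq and Trimmomatic, with build GRCm39. Tool versions and the strand setting of the counting were not given in these sources. GRCm38 annotation was used by gene symbol only, and promoter windows are RefSeq's on GRCm38.p6.

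The FPKM values of a gene were whole multiples of 1 read in 17828 genes (99.98%, within 0.001 of a whole number), which gave reads per library. A boundary of 5 M reads separated the deep set (8 libraries) from the shallow set (7 libraries). Intervals and floors from read numbers cover counting error only. Library pairs were compared by the variance of read numbers relative to sampling, over genes with at least 20 reads. Averaging required this ratio to be near or under 1 and that over genes with 20 to 99 reads to be under 1. For db/db Dapa 2 and 3 the values were 1.01 and 0.724, so they were averaged. For db/db Dapa 1 and 2 they were 1.71 and 0.885, and these stayed separate samples.

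limma 3.58.1 (R 4.3.3) with an intensity trend was run on log2(FPKM + 1) in each set separately, for genes averaging 0.5 FPKM or more in the set, 2-sided, with Benjamini-Hochberg adjustment over all genes tested. The set difference within db/db vehicle came from 1 fit of all libraries. The read recovery and the limma fits were also run on simulated data, with outcomes not reported here. The limma simulation gave every gene the same spread between libraries beyond sampling, which the genes here do not have. Alternatives were median-of-ratios and quantile scaling, further pseudocounts and filters, no trend, array weights, 1 fit with the set as a term, pooled sets, separate samples, the replicate number as a block and each library left out. Leaving out db/db Dapa 2 and 3 together was added after the data were seen. Members and gene lists were chosen with earlier results of these data known. Named genes outside the members are up to 6 called genes of each list by smallest adjusted p, clock genes fixed by name, and the 3 genes nearest to each member by Pearson's r; some genes this rule selects are not reported here.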

Additional observations from a re-analysis of the deposited data

Results flagged for a closer look

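Of 20 combinations of a member and a group of 4 or 5 samples, 6 held a sample whose gap to the nearest other sample was large for the group's range by Dixon's test at the 95% level, which chance gives in about 1 of 20 groups. The combinations share libraries and are not independent, so 6 of 20 cannot be set against that rate. Of these 6, 4 were the same library, WT 4, at 4.99 FPKM for Per2, 5.86 FPKM for Per3, 1.29 FPKM for Npas2 and 53.8 FPKM for Dbp. The others were db/db Dapa 1 at 7.95 FPKM for Per1 and db/db Dapa 5 at 4.62 FPKM for Clock.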

How the results depend on the processing

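Per1, Per2 and Cry1 kept their direction and their call under every alternative run for db/db vehicle against WT, with log2 fold changes of 0.92 to 1.39, 0.93 to 1.40 and 0.54 to 1.38. The number of members called was 5, near the 52.7% of all tested genes called. It was 3 to 6 when a library was left out (3 without db/db vehicle 3). The share of all genes called in those fits is not given here, so this range does not describe the clock genes apart from other genes. Relative to the median gene the sign turned for Nr1d1 (-0.083), Nr1d2 (-0.030), Clock (-0.14) and Tef (-0.11), and under quantile normalization for Clock (-0.13). Pooling the sets with no term for them turned Nr1d2 (-0.14), Clock (-0.29) and Tef (-0.29), and called 3173 genes in place of 6492. Quantile normalization gave 0.56 for Per3 (limma, adjusted p = 0.109) and pooling 0.34 (adjusted p = 0.406). With a library left out, Nr1d1 ran from -0.080 to 0.27 and Tef from -0.010 to 0.20. For db/db Dapa against db/db vehicle, pooling called 1 member (Clock, -0.77, limma, adjusted p = 0.0440) and turned Per1 (-0.068), Per3 (-0.58), Nr1d1 (0.18), Nr1d2 (-0.30) and Tef (-0.43). It called 836 genes, against 31 with the set as a term, 3 with no filter, 2 with no trend, 2 with separate samples and 0 as reported. Separate samples turned Nr1d1 (0.017), and leaving out db/db Dapa 2 and 3 together turned Cry1 (0.022). With a library left out, Per1 ran from -0.13 to 0.41, Per2 from -0.064 to 0.20, Per3 from -0.19 to 0.39, Cry1 from -0.19 to 0.0028, Nr1d1 from -0.12 to 0.032, Dbp from -0.067 to 0.68 and Tef from -0.053 to 0.35. The cause of these changes was not tested.

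Replicate numbers were not taken as pairs. Deviations of same-numbered db/db vehicle and WT libraries correlated at 0.38, 0.05 and -0.01 across genes, against -0.30 to 0.19 for different numbers. The value of 0.38, for number 1, was thus the highest of all. In the shallow set numbers 4 and 5 gave -0.05 and -0.72. With 2 vehicle libraries the deviations mirror each other, so these values cannot show pairing. With the number as a replicate block, 6 members were called, Dbp being added (0.51, limma, adjusted p = 0.0115). A number found in 1 group only adds nothing to the group difference in such a fit, so WT 4 and WT 5 dropped out. Dbp was also called without WT 4 alone. The share of all genes called with the block is not given here. In the dapagliflozin comparison 0 members were called, with Per2 (-0.035), Per3 (-0.015) and Cry1 (0.091) turned. Only numbers 4 and 5 occurred in both groups there, so that fit cannot decide whether members differ.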
